A study of Mus musculus with 2 samples.

Results

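The 10 genes described here encode SR proteins and their Tra2 relatives: Srsf1, Srsf2, Srsf3, Srsf5, Srsf6, Srsf7, Srsf10, Srsf11, Tra2a and Tra2b. Members were taken by gene name from the deposited read counts of both libraries, and all 10 were read, of 19042 annotated genes read in the series. The samples were hippocampus (labelled as a layer of that structure) from B6CASTF1/J mice, all female and aged 14 days. This strain is a first-generation cross between C57BL/6J and CAST/EiJ. There was 1 group of 2 libraries, replicate 1 and replicate 2, each made from 2 µg of RNA from a pool of 3 animals, so the spread between animals cannot be seen. The assay was long-read RNA sequencing, in which 1 read copies 1 cDNA and shows which exons and introns it held together. No second condition was sequenced, so the comparison is of replicate 1 with replicate 2.

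SR proteins hold RNA-binding domains and a stretch rich in arginine and serine, and they bind exons and help the spliceosome choose splice sites. Many SR genes hold a poison exon or an intron whose inclusion brings a stop codon into the reading frame, and messages with such a stop can be destroyed by nonsense-mediated decay, the surveillance pathway that reads exon junctions left downstream of a stop. SR proteins are known to promote these forms of their own and of each other's messages and so to limit their own level, and several of these exons lie in sequence that is nearly identical between mouse and human.

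The stops that carry most of the results are shown first, as bases of the GENCODE M21 transcripts on mm10 (GRCm38, the C57BL/6J reference), 5′ to 3′ on the gene's strand. Each line starts with the last 30 bases of the upstream coding exon. The lines for kept sequence then run through the poison exon or intron to the first in-frame stop codon, which is in capitals, and the lines for removed sequence go on with the first 30 bases of the next coding exon.
Srsf3 with the poison exon chr17:29039454-29039909: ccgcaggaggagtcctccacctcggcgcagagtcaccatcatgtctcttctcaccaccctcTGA
Srsf3 without it: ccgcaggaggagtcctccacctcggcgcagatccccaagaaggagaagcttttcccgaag
Srsf5 with the intron chr12:80947866-80949094 retained: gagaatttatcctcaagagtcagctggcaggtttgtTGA
Srsf5 with that intron spliced: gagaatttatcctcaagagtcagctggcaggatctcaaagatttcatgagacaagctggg
Srsf7 with the intron chr17:80204388-80205261 retained: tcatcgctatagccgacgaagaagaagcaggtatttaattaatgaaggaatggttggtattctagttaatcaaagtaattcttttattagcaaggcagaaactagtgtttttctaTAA
Srsf7 with the poison exon chr17:80204622-80205081, which lies inside that intron: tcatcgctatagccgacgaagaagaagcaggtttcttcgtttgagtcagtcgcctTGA
Srsf7 with the whole intron spliced: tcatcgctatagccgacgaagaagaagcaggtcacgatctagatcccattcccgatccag
Srsf11 with the poison exon chr3:158023243-158023359: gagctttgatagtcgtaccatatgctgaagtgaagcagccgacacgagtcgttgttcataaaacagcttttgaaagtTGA
Srsf11 without it: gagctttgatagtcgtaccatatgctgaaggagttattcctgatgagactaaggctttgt
Srsf1 with the intron chr11:88049216-88049411 retained: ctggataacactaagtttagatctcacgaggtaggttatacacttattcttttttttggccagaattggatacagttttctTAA
Srsf1 with that intron spliced: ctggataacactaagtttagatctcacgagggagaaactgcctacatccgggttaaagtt
The stop was reached 6 bases into the retained Srsf5 intron and 31 bases into the Srsf3 poison exon. It lay 85 bases into the retained Srsf7 intron and 25 bases into the Srsf7 poison exon, 47 bases into the Srsf11 exon and 51 bases into the Srsf1 intron. The Srsf1 stop is also the annotated stop of a protein-coding transcript, Srsf1-201, in which no junction follows it.

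Replicate 1 held 1168366 reads and replicate 2 held 888704, so 1 read was worth 0.856 and 1.13 CPM (reads per 1000000 reads of the library). Markers of excitatory neurons summed to 3521 CPM in replicate 1 and 3407 CPM in replicate 2, and all marker genes of the neural and microglial lists were read in both. The sums were higher in replicate 2 for dentate granule cells (88.2 and 180 CPM), astrocytes (2390 and 3866 CPM), oligodendrocytes (4529 and 6137 CPM) and microglia (137 and 197 CPM). The 4 choroid plexus markers summed to 4636 CPM in replicate 1 and 5.63 CPM in replicate 2, and 1 of the 4 was read in both. Blood markers summed to 455 and 285 CPM, with Slc4a1 not read in either library. Their part in the differences given below was not tested. In tissue RNA, fewer cells of a type and less RNA per cell cannot be told apart. Every test treats reads as the unit and so compares these 2 libraries, not conditions or animals, and all intervals are exact Clopper-Pearson intervals at 95% that cover counting error only.

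Summed over the 10 genes, replicate 1 gave 1091 reads (934 CPM) and replicate 2 gave 939 (1057 CPM), a mean of 995 ± 86.8 CPM (SD, n = 2). CPM counts reads and is not corrected for transcript length, so the order of genes below is an order of reads. Srsf2, which encodes a classical SR protein that binds exonic enhancers, was the most read, with 247 and 244 reads (211 and 275 CPM). Srsf5 had 168 and 180 reads (144 and 203 CPM), and Srsf3, the smallest classical SR protein, had 195 and 125 (167 and 141 CPM). Srsf7, a zinc-knuckle SR protein, had 121 and 89 reads (104 and 100.1 CPM). Srsf11 had 98 and 85 (83.9 and 95.6 CPM), Srsf1 had 89 and 72 (76.2 and 81.0 CPM) and Srsf6 had 75 and 84 (64.2 and 94.5 CPM). Srsf10, a splicing repressor in its dephosphorylated state, had 76 and 39 reads (65.0 and 43.9 CPM). The sequence-specific activators were low: Tra2b had 17 and 18 reads (14.6 and 20.3 CPM) and Tra2a had 5 and 3 (4.28 and 3.38 CPM). In mean CPM the order was Srsf2, Srsf5, Srsf3, Srsf7, Srsf11, Srsf6, Srsf1, Srsf10, Tra2b and Tra2a. Srsf3 stood above Srsf5 in replicate 1 and below it in replicate 2, and Srsf6 stood below Srsf1 and Srsf10 in replicate 1 and above both in replicate 2. Srsf5 and Srsf3 thus had no fixed order, nor had Srsf6 against Srsf1 and Srsf10. Srsf11 was above Srsf6 in both libraries, but in replicate 2 only by 95.6 to 94.5 CPM.

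**Figure D1:**
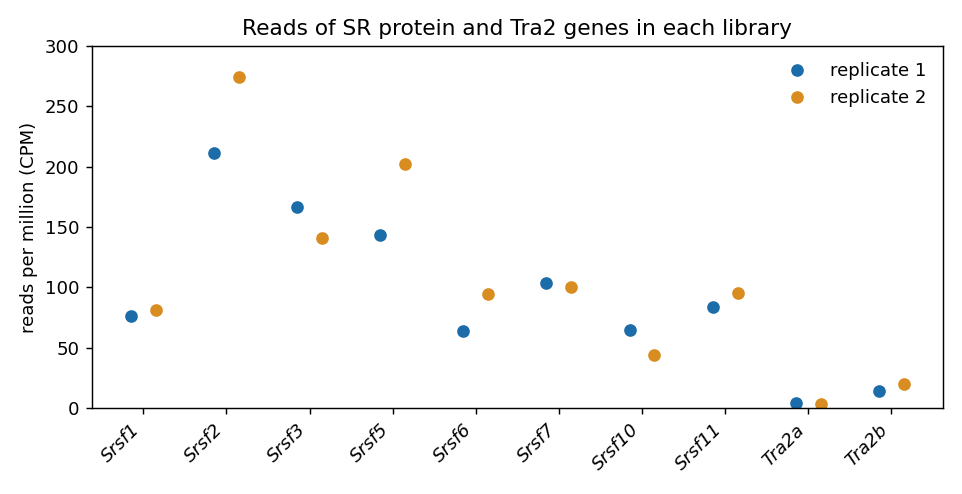
Reads per 1000000 reads, CPM (y axis, linear from 0) of each gene (x axis), 1 point per library with replicate 1 to the left of replicate 2. Srsf2 is the highest in both libraries, at 211 and 275 CPM, and Tra2a the lowest, at 4.28 and 3.38 CPM.

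In the exact two-sided binomial test of each gene's split of reads against the split of library totals (Benjamini-Hochberg over 11681 genes with at least 10 reads), 11.5% of all genes passed at 0.05, 5.24% as higher in replicate 1 and 6.25% as higher in replicate 2. Of the 9 members with enough reads, 2 were lower in replicate 1 and none was higher. Srsf5 stood at 144 CPM in replicate 1 and 203 CPM in replicate 2 (log2 ratio -0.49, adjusted p = 0.0195). Srsf2 stood at 211 and 275 CPM (log2 ratio -0.38, adjusted p = 0.0387). With edgeR's TMM-scaled totals, with DESeq2 size factors or with the trend by transcript length removed, neither passed (adjusted p = 0.125, 0.124 and 0.156 for Srsf5, and 0.265, 0.247 and 0.305 for Srsf2). The median log2 ratio of the members was -0.14, against -0.11 over all tested genes.

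Most reads of the 10 genes matched a protein-coding transcript, and unannotated forms made up most of the rest. Protein-coding transcripts took 60.7% of the reads in replicate 1 (662 of 1091, interval 57.7 to 63.6%) and 65.3% in replicate 2 (613 of 939, 62.1 to 68.3%). Transcripts annotated as targets of nonsense-mediated decay took 1.47% (16 reads) and 1.60% (15 reads). Transcripts annotated as retained-intron took 4.31% (47 reads) and 3.19% (30 reads). Unannotated forms took 33.5% (365 reads) and 29.9% (281 reads). The largest of the deposited classes of these was that of new combinations of known splice sites, with 194 and 141 reads (17.8% and 15.02%). Another 100 and 95 reads matched part of an annotated transcript, 30 and 19 were in the class with a new splice site, and 41 and 26 were unspliced or intronic. Each library's models were classed separately, and 2 Srsf11 chains read in both libraries had a different class in each, so the split between these classes is less certain than their sum. Of the 90 annotated transcripts of these genes, 41 were read: 23 of 30 protein-coding, 6 of 16 decay targets and 11 of 30 retained-intron forms, and 1 of another type.

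**Figure D2:**
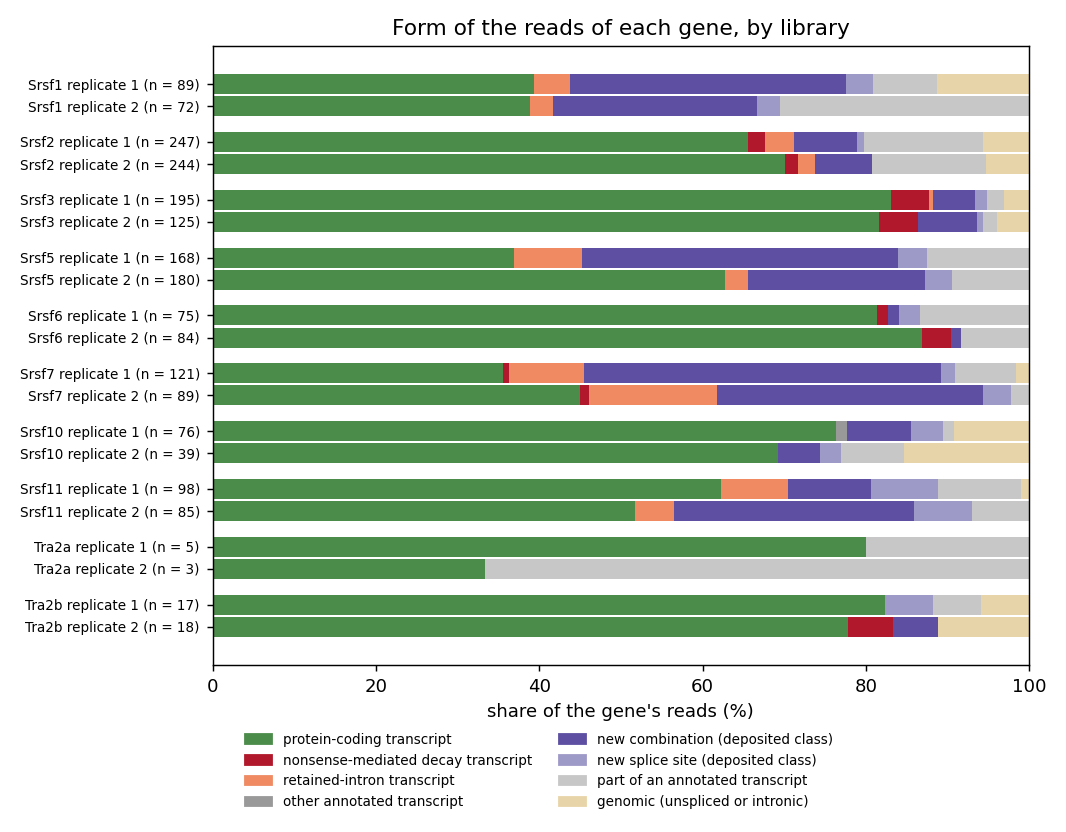
Share of each gene's reads (x axis, %) by the form the read matched, with 1 bar per gene and library, replicate 1 above replicate 2, and n the number of reads. Srsf3, Srsf6 and Tra2b are mostly protein-coding in both libraries, while Srsf1, Srsf5 and Srsf7 hold large shares in the class of new combinations.

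The share by gene ranged widely. Srsf3 (83.1% and 81.6%), Srsf6 (81.3% and 86.9%) and Tra2b (82.4% and 77.8%, on 17 and 18 reads) were mostly protein-coding. Srsf10 had 76.3% and 69.2%, Srsf2 65.6% and 70.1%, and Srsf11 62.2% and 51.8%. Srsf1 had 39.3% and 38.9% and Srsf7 35.5% and 44.9%. Srsf5 had 36.9% of its reads on protein-coding transcripts in replicate 1 and 62.8% in replicate 2. The intervals of this share in Srsf5, 29.6 to 44.7% and 55.3 to 69.9%, did not overlap, while those of each other member did. Tra2a had 4 of 5 reads and 1 of 3 on protein-coding transcripts. No share of all genes is given for this comparison of intervals, here or in the classes below. How often such gaps arise between these libraries was not tested. In unannotated classes the intervals of other members also stood apart. In Srsf1 these were parts of an annotated transcript (7.87% and 30.6%) and unspliced or intronic reads (11.2% and 0%). Both rest largely on models of 1 exon, which each library's modelling classed separately. In replicate 2, 14 of the 22 reads in the first class were on 1 such model. In replicate 1 the reads of the second class were on such models, with 8 and 2 reads. In Srsf11 it was new combinations (10.2% and 29.4%). This gap rests in part on class labels, through the 2 Srsf11 chains named above. They had 5 and 2 reads in other classes in replicate 1, and 8 and 5 reads as new combinations in replicate 2. Unannotated forms were over 50% of the reads in both libraries for Srsf1 only (56.2% and 58.3%), and in replicate 1 also for Srsf5 (54.8%, against 34.4% in replicate 2) and Srsf7 (54.5%, against 38.2%).

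Counted only by the annotated type of the transcript, decay-target and retained-intron forms together were few. They took 9.92% and 16.9% of Srsf7 reads, 8.33% and 2.78% of Srsf5 reads, 8.16% and 4.71% of Srsf11 reads and 5.67% and 3.69% of Srsf2 reads. The shares were 5.13% and 4.80% for Srsf3, 4.49% and 2.78% for Srsf1 and 1.33% and 3.57% for Srsf6. In Fisher's exact test between libraries over 4474 genes with such a transcript, 0.0224% of genes passed, and 0 of the 7 members tested did. One member, Srsf5, had an unadjusted p below 0.05 (0.0317).

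Each read's form was also read from the annotated start codon to its first stop, and counted when a junction lay more than 50 nt downstream of that stop, whether the stop was an annotated one or not. Such reads made up 22.9% of the members' reads whose frame could be read in replicate 1 (222 of 968, interval 20.3 to 25.7%) and 18.9% in replicate 2 (158 of 838, 16.3 to 21.7%). Of these, 167 and 114 ended at a premature stop, and 55 and 44 ended at an annotated stop with a later junction. On unannotated forms were 182 and 124 of them (82.0% and 78.5%). The median over the 8 members tested was 12.0% in replicate 1 and 16.2% in replicate 2, against medians of 1.18% and 1.52% over all 5245 genes tested, and 6 of the 8 were above 10% in both libraries, as were 12.7% of all genes. Srsf1, Srsf7 and, in replicate 1, Srsf5 were the highest of the 8. Fisher's exact test between libraries passed for 0.172% of genes and, among the 8 members, for Srsf5 alone (0.114% of genes passed as higher in replicate 1 and 0.0572% as higher in replicate 2), with 77 of 153 reads (50.3%) in replicate 1 and 35 of 164 (21.3%) in replicate 2 (adjusted p = 0.000197).

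**Figure D3:**
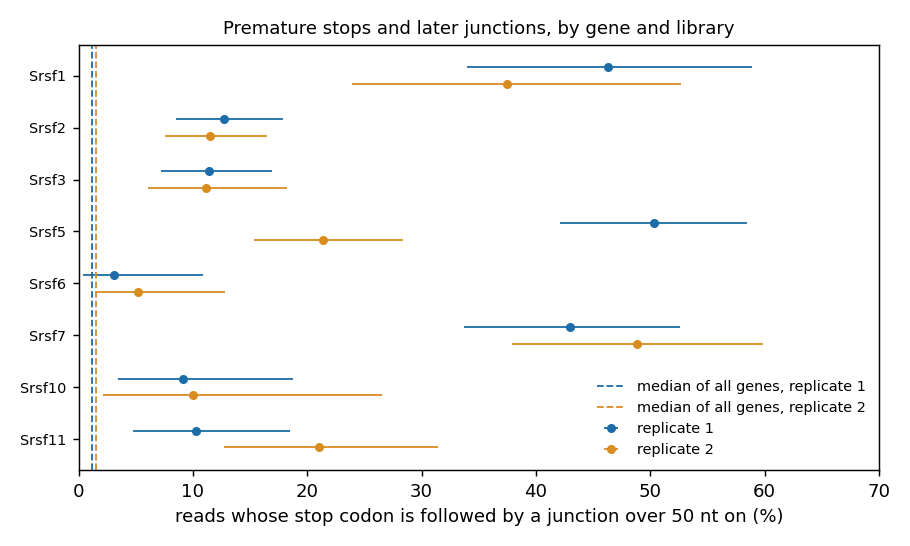
Reads whose first in-frame stop is followed by a junction more than 50 nt on (x axis, % of reads whose frame was read), by gene, with replicate 1 above replicate 2, bars for exact 95% intervals and dashed lines for the medians of all genes tested, 1.18% and 1.52%. Srsf1 and Srsf7 are high in both libraries, and Srsf5 is at 50.3% in replicate 1 and 21.3% in replicate 2.

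Srsf5 (ENSMUSG00000021134.17, chromosome 12, 80945504 to 80950507) differed between the libraries at 1 intron. The intron at 80947866 to 80949094 is 1229 nt long and lies within the coding part. It was retained in 75 of 148 reads in replicate 1 (50.7%, 42.3 to 59.0%) and in 31 of 164 in replicate 2 (18.9%, 13.2 to 25.7%). Among 50398 introns tested, 0.300% passed Fisher's exact test between libraries, 0.171% as more retained in replicate 1 and 0.129% in replicate 2, and this was the 1 intron that passed of 60 in the members (adjusted p = 3.01e-06). Counting reads of annotated transcripts only, the difference was 14.2 percentage points, against 31.8 with all reads, and it did not pass (adjusted p = 1). Reads that retained it ended in frame at the stop printed above, 75 of them in replicate 1 and 29 in replicate 2. Most were unannotated combinations in which every other intron was spliced. The leading 2 differed from each other in the 5′ splice site of the first exon and had 31 and 18 reads in replicate 1, and 13 and 9 in replicate 2. The annotated retained-intron transcript Srsf5-212 had 14 and 5 reads.

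The difference had the same direction with each of the 3 main 5′ splice sites of the first exon of Srsf5, which lie in the 5′ untranslated region. These are subsets of the reads counted above, and no test was run by site. With the site at 80945668, 17 of 30 reads retained the intron in replicate 1 and 7 of 30 in replicate 2 (56.7% and 23.3%). The intervals at this site, 37.4 to 74.5% and 9.93 to 42.3%, overlapped. With the site at 80945672 it was 34 of 68 and 13 of 60, and with the site at 80945798 it was 22 of 42 and 11 of 66 (52.4% and 16.7%). At neither of these sites did the intervals overlap. Choroid plexus markers, higher in replicate 1, and granule cell, astrocyte, oligodendrocyte and microglia markers, higher in replicate 2, moved with this result, and their part in it was not tested. Of the protein-coding transcripts of Srsf5, Srsf5-205 had 17 and 50 reads, Srsf5-201 had 26 and 41, Srsf5-203 had 11 and 16 and Srsf5-202 had 8 and 6.

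Srsf7 (ENSMUSG00000024097.11, chromosome 17, 80200080 to 80207307) kept an intron often in both libraries. The 874 nt intron at 80204388 to 80205261 was retained in 42 of 103 reads in replicate 1 (40.8%, 31.2 to 50.9%) and 39 of 83 in replicate 2 (47.0%, 35.9 to 58.3%), and the difference did not pass (p = 0.458 unadjusted, adjusted p = 1 by Fisher's exact test). It is the intron that holds the poison exon. The exon itself, 460 nt long, was included between its annotated neighbours in 3 of 64 reads and 1 of 45, so reads that kept the whole intron outnumbered those that kept the exon. The retained intron's own stop was reached by 43 and 38 reads and that of the poison exon by 6 and 4. The adjacent downstream intron, 80 nt at 80204233 to 80204312, was retained in 0 reads and spliced in 115 and 89. The one after it, with alternative 5′ splice sites from 80204122 on, was retained in 9 and 12 reads. It was spliced from 80204122 in 65 and 33 reads and from 80204131, 9 nt away, in 31 and 35. No read in which this second downstream intron was retained had spliced the 874 nt intron: all 6 such reads in replicate 1 and all 12 in replicate 2 that covered both kept both. On these few reads the share that spliced the 874 nt intron has intervals of 0 to 45.9% and 0 to 26.5%. Where the second downstream intron was spliced from 80204122, the 874 nt intron was spliced in 35 of 59 reads (59.3%, 45.7 to 71.9%) and 20 of 30 (66.7%, 47.2 to 82.7%). The intervals overlap at their ends in replicate 1. Paired introns were added after seeing the data, so no test is given. A 36 nt coding exon at 80202169 to 80202204 was included in 97 of 114 reads and 79 of 88 (85.1% and 89.8%).

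Srsf1 (ENSMUSG00000018379.17, chromosome 11, 88047373 to 88053755), the founding SR protein, retained its 196 nt coding intron at 88049216 to 88049411 in 35 of 82 reads in replicate 1 (42.7%, 31.8 to 54.1%) and 14 of 54 in replicate 2 (25.9%, 14.96 to 39.7%), with overlapping intervals and adjusted p = 1 by Fisher's exact test. Of the 35 retaining reads in replicate 1, 8 were on an unspliced model of 1 exon, and no 1-exon model covered this intron in replicate 2. The 881 nt intron of Srsf1 in the 3′ untranslated region, at 88050096 to 88050976, was spliced out in 37 of 85 reads and 19 of 69. Of the 48 reads that retained it in replicate 1, 8 were on that unspliced model. Of the 50 in replicate 2, 14 were on another model of 1 exon. The deposited annotation has the spliced form of that second intron in decay-target and retained-intron transcripts and in no protein-coding one. The pair was counted on the same read models as follows. Retention was scored on the ends of the model, which for Srsf1-205 are those of the gene, and ends of single reads were not used. A read of Srsf1-205 that ended before the untranslated intron would thus count as retaining it. Where the coding intron was retained, the untranslated intron was spliced in 20 of 34 reads in replicate 1 (58.8%, 40.7 to 75.4%) and 8 of 13 in replicate 2 (61.5%, 31.6 to 86.1%). The 34 reads of replicate 1 include the 8 unspliced ones. Where the coding intron was spliced, the untranslated intron was spliced in 13 of 47 (27.7%, 15.6 to 42.6%) and 9 of 39 (23.1%, 11.1 to 39.3%). The intervals overlap at their ends in each library, and this pair was chosen after its values were seen, so no test is given. The leading unannotated form had the first event and the second together and was read 13 and 6 times. The leading annotated form, Srsf1-205, with neither, was read 30 and 24 times. Both annotated decay-target transcripts of Srsf1 had 0 reads.

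**Figure D4:**
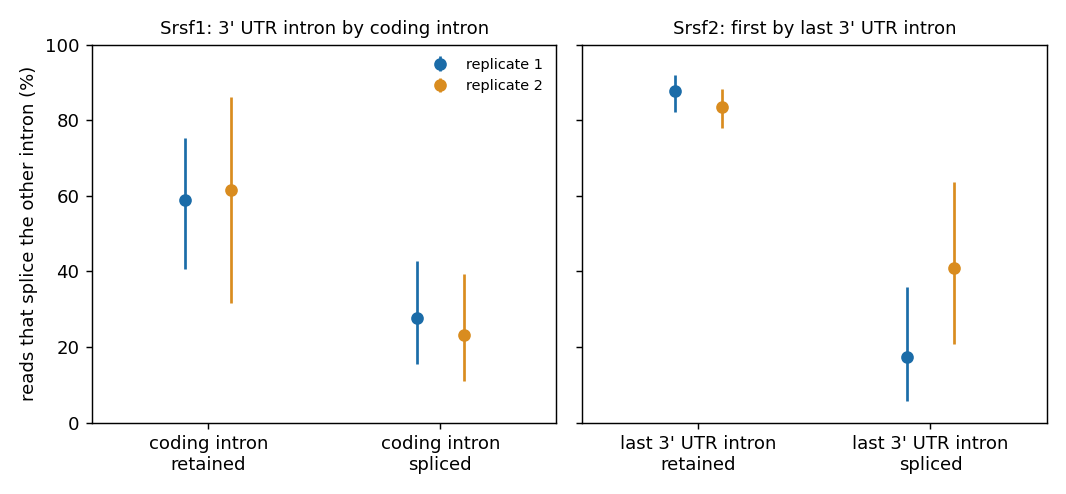
Share of reads that splice 1 intron (y axis, %) by whether another intron of the same read is retained or spliced (x axis), for Srsf1 (left) and Srsf2 (right), with replicate 1 left of replicate 2 and bars for exact 95% intervals. In Srsf1 the untranslated intron was spliced in 58.8% and 61.5% of reads that retained the coding intron, and in Srsf2 the first untranslated intron was spliced in 87.6% and 83.6% of reads that retained the last. Retention is scored on the ends of read models, not of single reads.

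Srsf2 (ENSMUSG00000034120.18, chromosome 11, 116849901 to 116853094) has its stop codon before all of its 3′ untranslated introns, so splicing of those introns changes the junctions that follow the annotated stop. The main transcript, Srsf2-201, splices a 1059 nt intron at 116850962 to 116852020 that starts just after the stop, and it had 162 and 171 reads. That intron was spliced whole in 175 and 187 reads and retained in 48 and 48 (21.5% and 20.4%). A 104 nt exon inside it, at 116851648 to 116851751, was included in 9 of 184 reads and 9 of 196 (4.89% and 4.59%). It lies in a decay-target transcript and also in an annotated protein-coding one, so it is not a poison exon by the rule used here. The last untranslated intron, 502 nt at 116850354 to 116850855, was spliced in 33 of 247 reads and 26 of 244. Reads with the annotated stop and a junction more than 50 nt after it numbered 26 and 25. Where this last intron was spliced, the 1059 nt intron was spliced in 5 of 29 reads in replicate 1 (17.2%, 5.85 to 35.8%) and 9 of 22 in replicate 2 (40.9%, 20.7 to 63.6%). Where it was retained, the 1059 nt intron was spliced in 170 of 194 (87.6%, 82.2 to 91.9%) and 178 of 213 (83.6%, 77.9 to 88.3%). In replicate 2, 13 of the reads that retained both introns were on an unspliced model of 1 exon. In replicate 1 the 14 reads on such a model did not cover the 1059 nt intron and are not counted. The intervals did not overlap in either library, and the pair was likewise chosen after its values were seen. As in Srsf1, retention rests on model ends, and those of Srsf2-201 are the ends of the gene.

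Poison exons were included in a small share of reads. By the rule, 7 exons of 5 members were poison exons: an internal exon of an annotated form that is not protein-coding, which overlaps no exon of a protein-coding transcript (other than one that spans the whole flanking intron) and whose skipping junction is in a protein-coding transcript. Summed over exons, inclusion was counted 18 times against 414 counts of skipping in replicate 1 (4.17%) and 18 against 303 in replicate 2 (5.61%). A read that skipped both poison exons of Srsf11 or of Tra2b counts once for each, so these are shares of counts over exons and not of distinct reads. Among 4489 cassette exons tested across all genes, 0.0223% passed Fisher's exact test between libraries. Of the 4 poison exons with enough reads 0 passed, and 0 had an unadjusted p below 0.05. In Srsf3 (ENSMUSG00000071172.13, chromosome 17, 29032628 to 29043373), the 456 nt exon was included in 11 of 176 reads in replicate 1 (6.25%, 3.16 to 10.9%) and 6 of 110 in replicate 2 (5.45%, 2.03 to 11.5%). The annotated decay-target transcript that holds it, Srsf3-201, had 9 and 6 reads, the most of any decay-target transcript of the 10 genes. In another 7 and 8 reads the whole 2150 nt intron around the exon was retained, which brings a different stop. The leading unannotated form of Srsf3 was this retention with every other intron spliced, read 7 times in each library.

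Srsf11 (ENSMUSG00000055436.18, chromosome 3, 158010473 to 158036639), an SR-related protein, included its 117 nt poison exon in 4 of 81 reads in replicate 1 (4.94%, 1.36 to 12.2%) and 10 of 72 in replicate 2 (13.9%, 6.87 to 24.1%). The intervals overlapped (p = 0.0894 unadjusted, adjusted p = 1 by Fisher's exact test). No read came from its 3 annotated decay-target transcripts, so each read with this exon was an unannotated combination. Another poison exon of Srsf11, 109 nt long, had 0 inclusions against 77 and 62 skipping reads, with intervals up to 4.68% and 5.78%. All frame-read early stops of Srsf11 together came to 9 of 88 reads and 17 of 81 (10.2% and 20.99%).

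**Figure D5:**
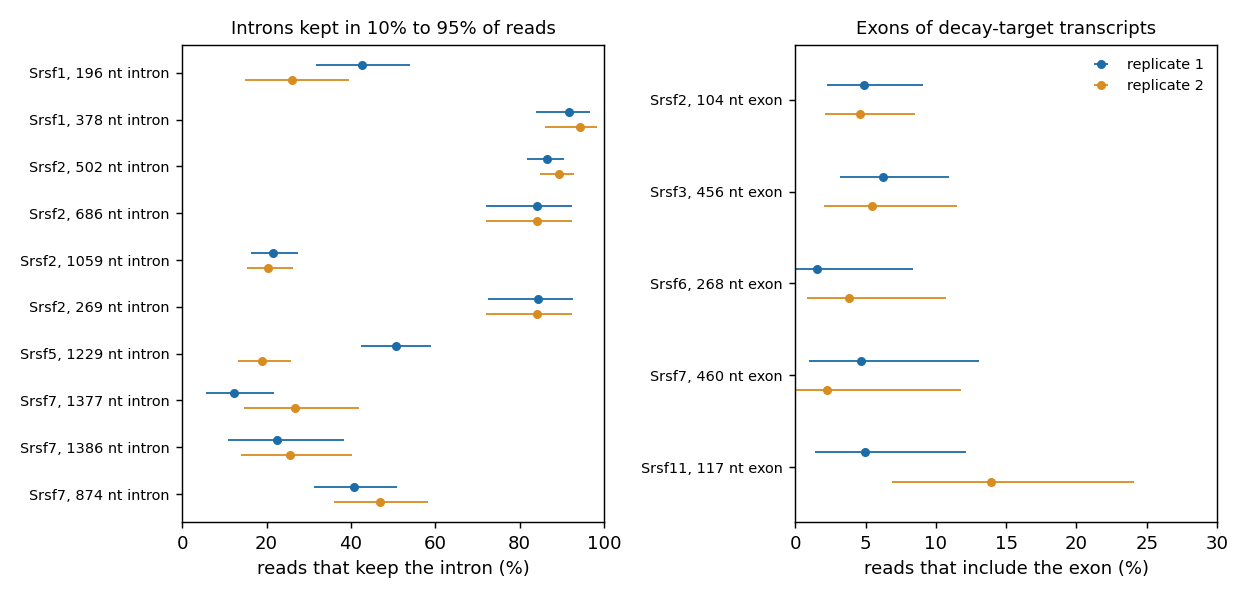
Left, reads that keep an intron (x axis, % of reads that keep it or splice it) for introns of protein-coding transcripts between 10% and 95% in these genes, with overlapping alternative introns drawn apiece. Right, reads that include a poison exon (x axis, % of reads that include or skip it), with the Srsf2 and Srsf6 exons, which overlap an exon of a protein-coding transcript and are not poison exons by the rule. Replicate 1 is above replicate 2, bars are exact 95% intervals, and the Srsf5 intron (50.7% and 18.9%) is the 1 row whose intervals do not overlap.

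Srsf6 (ENSMUSG00000016921.14, chromosome 2, 162931528 to 162937121) was mostly read as 1 coding transcript, Srsf6-203, with 61 and 73 reads. Its 268 nt exon at 162932815 to 162933082 was included in 1 of 64 reads and 3 of 79 (1.56% and 3.797%). That exon overlaps an exon of an annotated protein-coding transcript and so is outside the rule. Its 1283 nt intron around the exon was retained in 0 reads of either library. Tra2b (ENSMUSG00000022858.16, chromosome 16, 22244549 to 22266005) included its 276 nt poison exon in 0 of 15 reads in replicate 1, with an interval up to 21.8%, and in 1 of 16 in replicate 2. Tra2a (ENSMUSG00000029817.11, chromosome 6, 49243924 to 49264033) had 4 reads and 1 read that skipped its 306 nt exon and 0 that included it. At these depths inclusion in the Tra2 genes was not measurable.

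Retention was uneven among the members' introns, and no test compared them with those of other genes. Of 55 tested introns that a protein-coding transcript of a member splices, 11 were retained in over 10% of reads in both libraries (20.0%, overlapping alternative introns counted apiece), against 2.53% of 49908 such introns over all genes. These 11 lay in Srsf1, Srsf2, Srsf5 and Srsf7, and 29 of the 55 had no retaining read in either library. One of the 11, an annotated Srsf5 intron of 21 nt in the 5′ untranslated region, was spliced in no read.

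Srsf10 (ENSMUSG00000028676.17, chromosome 4, 135855747 to 135869908) had no annotated decay-target or retained-intron transcript. It split its reads between 2 last exons with different stop codons. The exon starting at 135863729 was last in 33 of 67 reads in replicate 1 and 21 of 33 in replicate 2 (49.3% and 63.6%, intervals 36.8 to 61.8% and 45.1 to 79.6%), and the exon starting at 135867126 was last in 34 and 12. Early stops were read in 6 of 66 and 3 of 30 reads (9.09% and 10.0%), all at the same stop codon, at 135858447, in reads that ran past the usual end of the second exon at 135858409.

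Srsf5 and Srsf10 each used a pair of 3′ splice sites 3 nt apart, a feature looked for after the forms had been seen. In both, the bases between the sites are the same triplet, shown in capitals with 15 bases of spliced exon on either side.
Srsf5, acceptors at 80949717 and 80949720: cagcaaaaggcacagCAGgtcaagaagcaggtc
Srsf10, acceptors at 135863523 and 135863526: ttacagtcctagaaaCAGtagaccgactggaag
In Srsf5 the form that keeps the triplet had 24 reads in replicate 1 and 23 in replicate 2, and the form without it 130 and 149 (15.6% and 13.4% with it). In Srsf10 the form without the triplet had 15 and 8 reads against 50 and 25 with it (23.1% and 24.2% without it). In these 2 pairs each site was read at least 8 times in both libraries.

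Unannotated spliced forms recurred. The members had 106 unannotated intron chains in replicate 1 and 87 in replicate 2, and 38 of them were in both. The shared chains held 215 of 311 unannotated spliced reads in replicate 1 and 174 of 231 in replicate 2 (69.1% and 75.3%). Srsf5 had 10 shared chains with 70 and 44 reads, and Srsf1, Srsf2, Srsf7 and Srsf11 had 6 each. Srsf3 and Srsf10 had 2 each, and Srsf6, Tra2a and Tra2b had none.

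The pathway around these genes was read as a list of 39 genes: other SR proteins, SR kinases, import receptors, coactivators, splice site factors, the exon junction complex, decay factors and the nuclear exosome. Of the 38 with enough reads, 2 were higher in replicate 1 and 0 higher in replicate 2 in the binomial test, against 5.24% and 6.25% of all genes, so the first count is near the background. Clk4, a kinase that phosphorylates SR proteins, had 71 and 26 reads (60.8 and 29.3 CPM, log2 ratio 1.03, adjusted p = 0.0130). Son, a large SR-related protein of nuclear speckles, had 112 and 48 reads (95.9 and 54.0 CPM, log2 ratio 0.82, adjusted p = 0.0106), and it did not pass with the length trend removed (adjusted p = 0.747). The SR kinase gene Srpk1 had 85 and 38 reads (72.8 and 42.8 CPM, log2 ratio 0.75) and did not pass (adjusted p = 0.0526), but passed with TMM totals (0.0186), DESeq2 size factors (0.0187) and the length trend removed (0.00429). The highest in mean CPM were Eif4a3, the helicase core of the exon junction complex (179 and 173 CPM), its partner Rnps1 (113 and 159 CPM) and the SR genes Srsf9 (122 and 131 CPM) and Srsf4 (96.7 and 108 CPM). The 10 decay factors summed to 208 and 287 CPM, and Upf1, the central helicase of the pathway, had 62 and 55 reads. In the reading-frame test 0 of 18 of these genes passed, and 0 had an unadjusted p below 0.05. Their median share of reads with a junction more than 50 nt after the stop was 5.38% and 4.94%. The highest were Clk4 (52 of 68 and 23 of 26 reads) and Srsf9 (42 of 107 and 38 of 84), named here after their values were seen.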

How the data were processed

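Members, lists and alternatives were chosen with earlier results of these data known. The authors deposited, for either library, a table of whole-number counts of reads assigned to each transcript, and an annotation on mm10 that joins GENCODE M21 with models built from that library's reads, whose source it names as TALON, per the file headers. For the aligner, tool versions, read filters and strand setting, the sources here state nothing.

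CPM divided a count by its library's total, and log2 ratios (replicate 1 over replicate 2) used an added 1 CPM. Shares, introns and exons needed at least 20 reads in each library for Fisher's exact test, genes 10 reads over both libraries for the binomial test. P-values were Benjamini-Hochberg adjusted over all genes, exons or introns tested, with a threshold of 0.05. A retained intron is one covered whole by an exon of a model, and an exon counts as included only between its annotated neighbours. Named transcripts were those with at least 10% of a gene's reads and the most read decay-target and retained-intron forms, and named pathway genes the 4 highest in CPM and those past the test. The reading frame, paired introns, nearby splice sites, last exons and antisense counts were added after seeing the data. In the reading frame, bases came from the reference transcripts, so CAST/EiJ alleles were not read, and 123 and 101 member reads without a readable frame were left out. Counting and tests were tested on simulated data. Alternatives were other scalings (edgeR 4.0.16 TMM, DESeq2 1.42.0 size factors, a running median over 501 genes ordered by length), read minimums, annotated or spliced models only, and each library alone. Tests ran in Python 3.11.15 (scipy 1.17.1, numpy 2.4.6, pandas 2.3.3), scaling in R 4.3.3 and plots in matplotlib 3.10.9. Nearby splice sites are given for Srsf5, Srsf7 and Srsf10, and others are not reported here.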

Additional observations from a re-analysis of the deposited data

Results flagged for a closer look

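Reads on the opposite strand of 3 members, from models the deposited annotation gives to no annotated gene, exceeded in both libraries the 3 reads that a count of 0 allows and came to at least 20 in all. These reads stand outside the counts of the report. Srsf10 had 91 in replicate 1 and 34 in replicate 2, 125 in all, against 76 and 39 reads of Srsf10 itself. Of these, 84 and 31 were on models of 1 exon, and the leading model, at 135857888 to 135858801 in replicate 1 with 55 reads and at 135857887 to 135858305 in replicate 2 with 22, overlapped between the libraries. Tra2b had 60 and 50, 110 in all, against 17 and 18 reads of Tra2b itself, and 51 and 43 of them were on models of 1 exon. The leading models, at 22258228 to 22261079 with 18 reads and at 22254408 to 22258064 with 21 reads, lay in different places in the 2 libraries. Srsf3 had 11 and 13, 24 in all, each on a model of 1 exon. Whether a 1-exon model has the strand of its RNA was not tested.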

How the results depend on the processing

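Of 57 comparisons of a summary value with an alternative, 42 were classed as kept and 15 as moved. A level or share was kept if it shifted by less than the SD of the 2 libraries. A count was kept if it was equal or within a fixed ratio. Runs with 1 library left out could not move by this rule, since each of 2 values lies within their SD of the mean. The 2 members lower in replicate 1 became 0 with TMM totals, 0 with DESeq2 size factors, 0 with the length trend removed and 1 without a read filter, and were 3 with annotated transcripts only, where Srsf6 was added. The protein-coding share of 63.0% became 67.4% with models of at least 2 reads, 66.6% with spliced models and 92.2% with annotated transcripts only. The decay-target share of 1.53% became 1.38% with models of at least 2 reads and 2.24% with annotated transcripts only, and the retained-intron share of 3.75% became 5.52% with annotated transcripts only. The unannotated share of 31.7% became 27.5% with models of at least 2 reads and 28.1% with spliced models. Poison exon inclusion of 4.89%, a share of counts summed over exons, became 2.85% with annotated transcripts only and 3.05% with models of at least 2 reads. The 1 intron that passed became 0 with annotated transcripts only. The cause was not tested, beyond the fewer reads counted by construction. In the reading-frame test 1 member passed in each alternative run, all chosen after seeing the data.

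With each library left out in turn, the lowest and highest values were 934 to 1057 CPM for the summed level, 60.7% to 65.3% for the protein-coding share, 1.47% to 1.60% for decay targets, 3.19% to 4.31% for retained introns, 29.9% to 33.5% for unannotated forms and 4.17% to 5.61% for poison exon inclusion. No paired analysis was possible because the series holds 1 group. With 2 pooled libraries, no p-value speaks of animals, and a share resting on under 20 reads, as in the Tra2 genes, has a wide interval.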

Other observations

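Beside Srsf5, 8 other genes passed the reading-frame test between the libraries, named here after their values were seen. Ddx5, an RNA helicase, had a junction more than 50 nt after the stop, premature or annotated, in 204 of 662 reads in replicate 1 and 101 of 657 in replicate 2 (30.8% and 15.4%, adjusted p = 1.6e-07 by Fisher's exact test). Pnisr, an SR-rich protein, had 44 of 103 and 11 of 105 (42.7% and 10.5%). Rbm39, a splicing coactivator, differed the other way, with 30 of 247 and 57 of 193 (12.1% and 29.5%), as did Rsrp1, with 266 of 359 and 260 of 296 (74.1% and 87.8%). Mpnd had 40 of 130 and 4 of 96, Stoml2 had 28 of 159 and 0 of 68, Mboat7 had 19 of 75 and 0 of 46, and Mobp had 121 of 179 and 156 of 180. In all, 6 of the 9 genes were higher in replicate 1 and 3 in replicate 2.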
